A study of Homo sapiens with 2 samples.

Results

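The ERBB receptors and their ligands were followed in 2 cultures labelled as the human melanoma line SK-MEL-2. One was given the kinase inhibitor JNJ-7706621 at 1.75 µM and one the solvent DMSO, each for 48 h. The compound blocks cyclin-dependent kinases and Aurora kinases, and the series title concerns the RNA-binding protein AUF1 and mRNA degradation. The genes were taken by symbol from the deposited table of 60527 genes. They were 8 in all, 3 receptors (EGFR, ERBB2 and ERBB3) and 5 ligands (AREG, EREG, HBEGF, TGFA and BTC), each with 1 entry in the table. Levels are FPKM, fragments per kilobase of exon and per 1000000 fragments, so that levels of different genes can be set side by side. With 1 labelled library per group, differences have no replicate check and no p-value is given. The deposited table also holds 2 columns, named like second libraries of both groups, that match no sample label and were not used here. The line had been grown in medium with serum, which brings growth factors of its own.

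Receptors of the ERBB family are tyrosine kinases of the cell surface that pair up when a ligand binds. AREG, EREG, TGFA, HBEGF and BTC bind EGFR and are made as membrane-bound precursors, which proteases of the ADAM family can cut loose. HBEGF, BTC and EREG can also bind ERBB4. ERBB2 has no known ligand and acts as a partner, and ERBB3 binds neuregulins and has little kinase activity of its own. The activated pairs feed the RAS-MAPK and PI3K-AKT pathways, and several EGFR ligand genes are themselves known targets of MAPK signalling in epithelial cells.

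Depth was similar, with totals of 22817719 reads for JNJ-7706621 and 23377161 reads for DMSO recovered from the FPKM values. Intervals in parentheses are exact 95% counting intervals from reads recovered out of the FPKM values; they and the limits set by a count of 0 cover counting error only. In both libraries melanocyte markers were low beside epithelial ones, although the label is of a pigment cell line. The identity of the cells was not tested. Of 12 melanocyte markers, 4 were listed at 0 in both libraries, and the 12 summed to 7.04 FPKM in the JNJ-7706621 library and 6.48 FPKM in the DMSO library. SOX10, a transcription factor of the lineage, had 0 reads in the JNJ-7706621 library and 1 read in the DMSO library. The 3 melanocyte markers with a mean of at least 1 FPKM were PMEL, MITF and MC1R. PMEL stood at 3.71 FPKM in the JNJ-7706621 library and 2.00 FPKM in the DMSO library. MITF stood at 2.27 and 2.65 FPKM and MC1R at 0.772 and 1.56 FPKM in the JNJ-7706621 and DMSO libraries. The 10 epithelial markers summed to 2283 and 2288 FPKM in the JNJ-7706621 and DMSO libraries, of which KRT18 held 1123 and 1117 FPKM and KRT8 703 and 720.0 FPKM. GRHL2, a transcription factor of epithelia, was listed at 0 in both, and CLDN7, a tight junction gene, stood at 0.633 FPKM in the JNJ-7706621 library and 0.412 FPKM in the DMSO library. Of 12 markers of blood, endothelial and mesenchymal cells, none reached a mean of 1 FPKM; they summed to 2.78 FPKM in the JNJ-7706621 library and 1.03 FPKM in the DMSO library. Among these CD14 stood highest, at 1.25 FPKM in the JNJ-7706621 library and 0.675 FPKM in the DMSO library, and the part of such cells in the results was not tested. In bulk RNA, a change in the mix of cells and a change in RNA per cell cannot be told apart.

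The promoters of AREG and EREG are shown because these were the genes with the largest differences among the 8. Each window holds 250 bases before and 50 after the RefSeq transcription start, on the plus strand of GRCh38.p14. The AREG window is chr4:74444886-74445185 and the EREG window is chr4:74364895-74365194. Capitals mark the cyclic AMP response element TGACGTCA and the TATA box TATAAA.
AREG: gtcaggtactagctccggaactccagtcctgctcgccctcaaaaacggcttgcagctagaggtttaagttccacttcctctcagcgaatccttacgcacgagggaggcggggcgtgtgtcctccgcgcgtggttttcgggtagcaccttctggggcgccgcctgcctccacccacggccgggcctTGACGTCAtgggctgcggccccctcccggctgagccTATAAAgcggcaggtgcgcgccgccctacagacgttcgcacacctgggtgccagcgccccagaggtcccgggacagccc
EREG: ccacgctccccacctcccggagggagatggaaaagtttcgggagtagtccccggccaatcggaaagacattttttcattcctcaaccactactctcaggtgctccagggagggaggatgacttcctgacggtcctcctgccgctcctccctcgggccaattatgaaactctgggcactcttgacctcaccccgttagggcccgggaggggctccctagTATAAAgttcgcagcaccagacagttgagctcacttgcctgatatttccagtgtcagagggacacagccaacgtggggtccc

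Both strands were searched for TGACGTCA, TATAAA, the AP-1 motif TGANTCA and the SP1 motif GGGCGG. The AREG window held TGACGTCA starting 65 bases before the start and TATAAA starting 29 bases before it, and the EREG window held TATAAA starting 32 bases before it. Of 35116 RefSeq promoter windows of that length, 1.85% held TGACGTCA and 11.5% held TATAAA. The AP-1 motif, in 7.71% of all windows, was not among the letters of either window, and the SP1 motif, in 45% of them, was found once in the AREG window. Windows were found for 7 of the 8 genes, ERBB3 being the exception, and AREG was the 1 gene of the 7 whose window held TGACGTCA. The matches describe these letters and do not show that a factor binds.

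**Figure D1:**
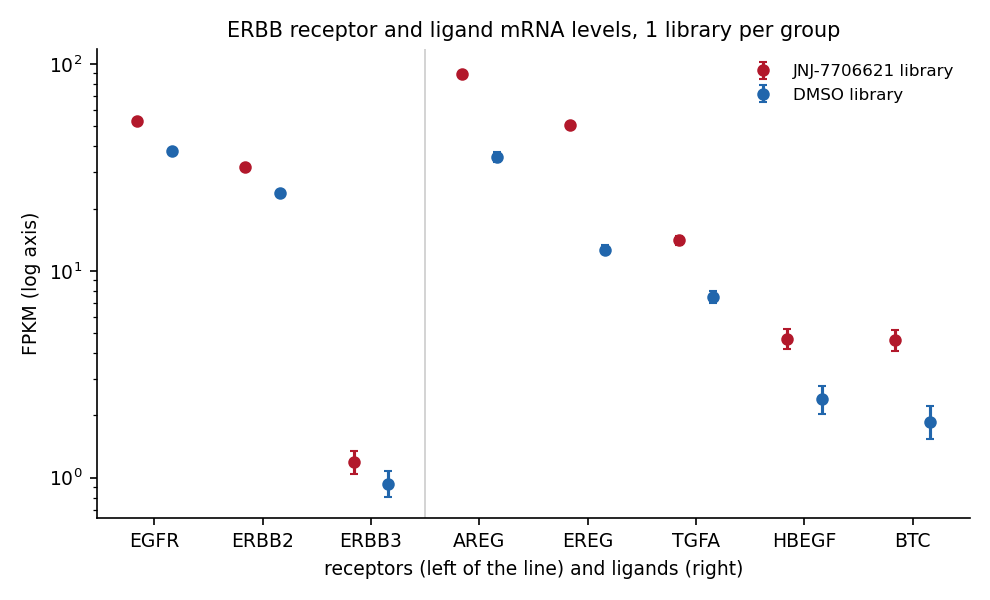
Level of each receptor (left of the line) and ligand (right) in FPKM on a log axis, in the JNJ-7706621 library (red) and the DMSO library (blue); bars are 95% counting intervals and there was 1 library per group. All 8 red points lie above their blue partners, with the widest gap for EREG (50.7 against 12.6 FPKM).

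All 5 ligand mRNAs stood higher in the JNJ-7706621 library by 1.87 to 4.01 times, and all 3 receptor mRNAs by 1.27 to 1.39 times. The ranges of these 5 ligands and 3 receptors did not overlap. The ligands NRG1 (1.38) and NRG4 (0.936), tested outside the 8, lay under the range of the 5. Of all genes tested, 49.6% lay on the higher side. A gene was called 2-fold higher or lower where the difference in log2(FPKM + 1), JNJ-7706621 minus DMSO, was at least 1 or at most -1, among genes with a mean of at least 1 FPKM over both libraries. The pseudocount of 1 understates differences of genes with low values. All 8 genes passed the filter, AREG and EREG were called higher and 0 were called lower. Over all 13241 genes tested, 2.39% were called higher and 1.36% lower. The median log2 difference of the 8 genes was 0.78, beside 0.00 over all genes tested. A counting interval wholly above a ratio of 1, found for all 8, is a weak mark at this depth, since 32.8% of the 13108 tested genes with recovered reads had one and 33.2% had one wholly below 1.

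EREG encodes epiregulin, a ligand of low affinity and long-lasting signalling that binds EGFR and ERBB4. It stood at 50.7 FPKM in the JNJ-7706621 library and 12.6 FPKM in the DMSO library, on 6607 and 1688 reads. The ratio was 4.01 (3.80 to 4.23) and the log2 difference 1.92, which ranked 34 among the 13241 genes from the highest. EREG lies on chromosome 4 at positions 74365143 to 74388751 on the plus strand of GRCh38, and no exon of another annotated gene overlaps its exons.

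AREG encodes amphiregulin, the EGFR ligand made by many epithelia. AREG stood at 89.8 FPKM in the JNJ-7706621 library and 35.6 FPKM in the DMSO library, on 3365 and 1366 reads. It was the ligand with the highest level in both libraries, with a ratio of 2.52 (2.37 to 2.69) and a log2 difference of 1.31, rank 151. AREG lies downstream of EREG on the same strand, at 74445134 to 74455009, and shares no exon bases with another annotated gene.

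BTC encodes betacellulin, which binds EGFR and ERBB4. BTC stood at 4.61 FPKM in the JNJ-7706621 library and 1.85 FPKM in the DMSO library, on 279 and 115 reads, a ratio of 2.49 (1.99 to 3.12). Its log2 difference of 0.97 lay just under the rule of size, at rank 344. With a pseudocount of 0.1 FPKM it was 1.27, past the rule. The ratio of BTC was close to that of AREG, and their counting intervals overlapped.

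TGFA encodes transforming growth factor alpha, a long known ligand that binds EGFR. Its mRNA stood at 14.0 FPKM in the JNJ-7706621 library and 7.51 FPKM in the DMSO library, a ratio of 1.87 (1.72 to 2.03) and a log2 difference of 0.82. HBEGF, the heparin-binding ligand, stood at 4.68 FPKM in the JNJ-7706621 library and 2.39 FPKM in the DMSO library, a ratio of 1.96 (1.62 to 2.37) and a log2 difference of 0.74. Neither passed the rule of size, and their ratios lay within each other's counting intervals. TGFA lies on chromosome 2 at 70447280 to 70554193 and HBEGF on chromosome 5 at 140332843 to 140346631, both on the minus strand.

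Summed over the 5 ligands, the level was 164 FPKM in the JNJ-7706621 library and 60.0 FPKM in the DMSO library, a ratio of 2.73. AREG made up 54.8% of that sum in the JNJ-7706621 library and 59.3% in the DMSO library, and EREG 30.9% and 21.1%. Together they held 85.8% of the ligand sum in the JNJ-7706621 library and 80.4% in the DMSO library. AREG stood 1.77 times as high as EREG in the JNJ-7706621 library and 2.82 times as high in the DMSO library. The order of the 5 ligands by level was the same in both libraries, AREG, EREG, TGFA, HBEGF and BTC, and the counting intervals of HBEGF and BTC overlapped in each.

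EGFR, the receptor that these 5 ligands share, stood at 52.9 FPKM in the JNJ-7706621 library and 38.1 FPKM in the DMSO library, on 15127 and 11161 reads. The ratio was 1.39 (1.36 to 1.42) and the log2 difference 0.46, rank 1644. EGFR lies on chromosome 7 at 55019021 to 55211628, and exons of EGFR-AS1 overlap 1.49% of its exon length. ERBB2, the partner without a ligand, stood at 31.7 FPKM in the JNJ-7706621 library and 23.9 FPKM in the DMSO library, a ratio of 1.32 (1.28 to 1.37) and a log2 difference of 0.39. It lies on chromosome 17 at 39687914 to 39730426, where exons of MIEN1 and PGAP3 overlap 7.41% of its exon length. ERBB3, on chromosome 12 at 56076799 to 56103505, was low, at 1.19 FPKM in the JNJ-7706621 library and 0.937 FPKM in the DMSO library. Its ratio of 1.27 (1.05 to 1.54) rested on 245 and 198 reads, and its log2 difference was 0.18. None of the 3 receptors passed the rule of size.

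The receptors kept nearly the same proportions in both libraries. EGFR made up 61.7% of the summed level of the 3 receptors in the JNJ-7706621 library and 60.5% in the DMSO library, ERBB2 36.9% and 38%, and ERBB3 1.38% and 1.49%. The receptor sum was 85.8 FPKM in the JNJ-7706621 library and 63.0 FPKM in the DMSO library, a ratio of 1.36. Across the 8 genes AREG led in the JNJ-7706621 library, above EGFR and EREG, and counting intervals of these neighbours did not overlap. In the DMSO library EGFR and AREG led with overlapping intervals, 37.4 to 38.8 FPKM for EGFR and 33.7 to 37.5 FPKM for AREG, and EREG stood below ERBB2.

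**Figure D2:**
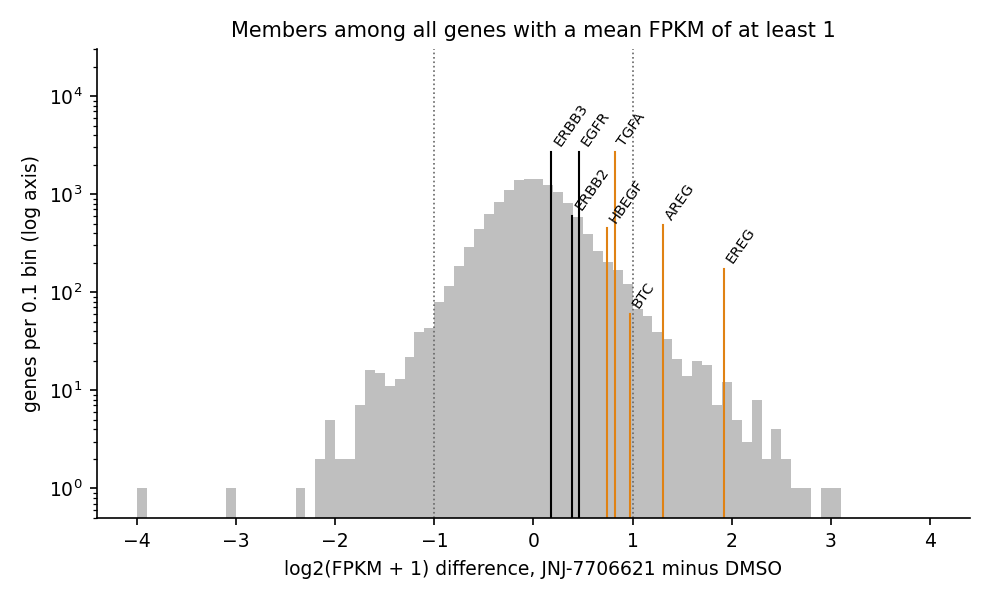
Number of genes (log axis) in bins of 0.1 of the log2(FPKM + 1) difference, JNJ-7706621 minus DMSO, over the 13241 genes with a mean of at least 1 FPKM; vertical lines mark receptors (black) and ligands (orange), and dotted lines the rule of size at -1 and 1. EREG (1.92) and AREG (1.31) lie past the dotted line, BTC (0.97) just inside it and the receptors between 0.18 and 0.46.

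The rest of the family was little expressed, apart from NRG4 and NRG1. Of these 7 genes 2 passed the filter and 0 were called. NRG4, a neuregulin that binds ERBB4, stood at 6.92 FPKM in the JNJ-7706621 library and 7.40 FPKM in the DMSO library, a ratio of 0.936 (0.849 to 1.03), and exons of FBXO22 overlap 38.1% of its exon length. NRG1, a ligand of ERBB3 and ERBB4, stood at 1.65 and 1.19 FPKM in the JNJ-7706621 and DMSO libraries, a ratio of 1.38 (1.24 to 1.54). ERBB4, the receptor shared by neuregulins, EREG, HBEGF and BTC, had 6 reads in the JNJ-7706621 library and 17 in the DMSO library. EPGN, the ligand epigen, had 2 reads and 1 read, NRG2 had 4 and 7, and NRG3 was listed at 0 in both, which allows up to 0.0259 FPKM in the JNJ-7706621 library and 0.0253 FPKM in the DMSO library.

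EGF itself, the founding ligand of the family, had the largest ratio among the family genes, at very low levels. It stood at 1.14 FPKM in the JNJ-7706621 library and 0.107 FPKM in the DMSO library, on 198 and 19 reads, a ratio of 10.7 (6.66 to 18.1). Its mean level lay under the filter of 1 FPKM, so it was not tested, and its log2 difference with the pseudocount of 1 was 0.95. With rescaling to a sum of 1000000 it entered and was called higher. In the JNJ-7706621 library EGF thus stood at about the level of ERBB3 and under every one of the 5 ligands above.

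**Figure D3:**
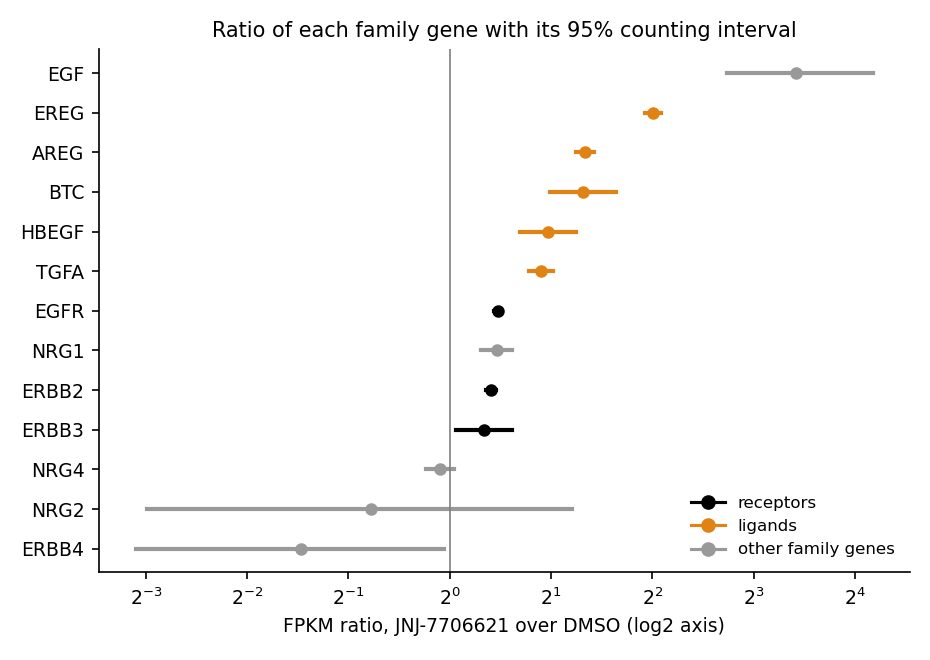
FPKM ratio of JNJ-7706621 over DMSO (log2 axis) for receptors (black), ligands (orange) and other family genes (grey), with 95% counting intervals; EPGN and NRG3, with 3 reads or fewer in all, are not drawn. The 5 ligands lie between 1.87 and 4.01 and the 3 receptors between 1.27 and 1.39; EGF, at 10.7, rests on 19 reads in the DMSO library.

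EREG, AREG and BTC are neighbours on chromosome 4, within 430 kb, next to the CXC chemokine genes. CXCL2, the nearest chemokine gene, ends 266 kb before EREG. AREG starts 56.4 kb after the end of EREG, and BTC, on the minus strand at 74744759 to 74794686, lies 290 kb beyond AREG. The 15 listed genes of this stretch ran from CXCL8 to PARM1, and 10 of them passed the filter. Of these 7 were called higher and 0 lower, beside 2.39% and 1.36% of all genes tested. The called genes were EREG, AREG and the chemokine genes CXCL8 at 194 FPKM in the JNJ-7706621 library and 23.2 FPKM in the DMSO library, CXCL1 at 625 and 154 FPKM, CXCL5 at 1558 and 691 FPKM, CXCL3 at 65.5 and 15.6 FPKM, and CXCL2 at 72.4 and 18.6 FPKM. The stretch was listed because of its position, with the chemokine values already known, and it includes EREG and AREG, called above. The share called is therefore no test of the region.

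The genes between and beside these did not all stand higher. MTHFD2L, an enzyme of mitochondrial folate metabolism that lies between CXCL2 and EREG, stood at 1.65 FPKM in the JNJ-7706621 library and 1.27 FPKM in the DMSO library, a ratio of 1.30 (1.11 to 1.51). PARM1, a mucin-like gene 138 kb beyond BTC, stood at 1.83 and 2.87 FPKM in the JNJ-7706621 and DMSO libraries, a ratio of 0.636 (0.533 to 0.758). EPGN, which lies between MTHFD2L and EREG, had the 2 reads and 1 read given above. The platelet chemokine genes PF4 and PF4V1 were listed at 0 in both libraries, PPBP had 5 reads in the JNJ-7706621 library and 9 in the DMSO library, and CXCL6 had 0 and 3.

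**Figure D4:**
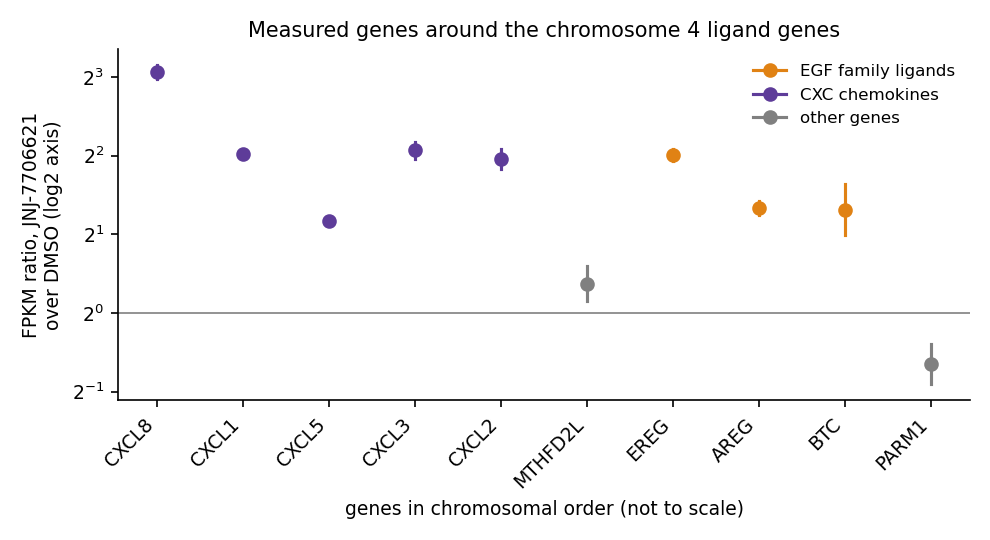
FPKM ratio of JNJ-7706621 over DMSO (log2 axis) with 95% counting intervals for the 10 measured genes from CXCL8 to PARM1, in chromosomal order and not to scale. The ligand genes (orange) lie between 2.49 and 4.01, while MTHFD2L (1.30) and PARM1 (0.636), in grey, lie lower.

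The 3' UTRs of the ligand mRNAs were searched for AUUUA, the core of AU-rich elements, because AUF1 is known to bind such elements. The libraries measure mRNA levels, and neither binding by AUF1 nor decay. Over 10144 protein-coding genes tested, the longest annotated 3' UTR had a median of 1.68 AUUUA per kb. All 5 ligands lay above that median. AREG had 4 in a 3' UTR of 269 bases, or 14.9 per kb, a density that 0.246% of these genes reached. BTC had 12 in 1918 bases, or 6.26 per kb (reached by 4.33% of genes), and EREG 20 in 3943 bases, or 5.07 per kb (8.02%). TGFA had 3.63 per kb (18.8%) and HBEGF 3.43 per kb (21.1%). By count and not density AREG was ordinary, since 39.1% of these genes had as many AUUUA or more. Its 3' UTR of 269 bases is short beside the median of 1350. For the counts of EREG, TGFA, BTC and HBEGF these shares were 3.14%, 9.03%, 10.5% and 32.9%. Of the receptors, EGFR had 1.50 per kb and ERBB3 1.38 per kb, both under the median, and ERBB2 had 0 in 618 bases. A density above the median was not limited to the ligands listed here. Of the 7 other family genes 5 had one, EGF at 4.93 per kb, NRG1 at 3.37, the receptor ERBB4 at 3.04, NRG3 at 2.54 and NRG2 at 1.76, while EPGN and NRG4 had 0.

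The 30-base windows of the AREG and EREG 3' UTRs with the most AUUUA are shown as examples, from GENCODE transcripts. The AREG window runs from base 190 to base 219 after the stop codon and the EREG window from base 2557 to base 2586. Capitals mark AUUUA, of which each window holds 3, and those of AREG overlap in part.
AREG: ucaaguuguaaauaAUUUAUUUAauAUUUA
EREG: aauccAUUUAuuucAUUUAcaaaagAUUUA

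Genes of ligand release and of the pathway below the receptors showed small differences in both directions. Of 13 tested genes of ligand release (metalloproteases, iRhoms and their partners) 8 lay above 0 and 0 were called, and the median was 0.17. The member with the largest difference was ADAM15, a metalloprotease, at 26.6 FPKM in the JNJ-7706621 library and 16.1 FPKM in the DMSO library, a ratio of 1.66 (1.57 to 1.74). FRMD8 and RHBDF2, which help to bring the sheddase ADAM17 to the surface, had log2 differences of 0.56 and 0.53, and the sheddase ADAM10 had -0.48. ADAM17, named after its values were seen because it cuts AREG, EREG, TGFA and HBEGF, stood at 7.48 and 6.44 FPKM in the JNJ-7706621 and DMSO libraries.

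Of 35 tested adaptor and signalling genes, 17 lay above 0 and 18 below, 0 were called, and the median was -0.01. Phospholipase PLCG1 and the kinase SRC had log2 differences of 0.75 and 0.73, with SRC at 57.5 FPKM in the JNJ-7706621 library and 34.2 FPKM in the DMSO library. The RAS exchange factor SOS2 and the endocytic adaptor EPS15 had -0.71 and -0.64. Of 24 tested genes that damp the receptors, 14 lay above 0, 0 were called, and the median was 0.11. SPRY4, a MAPK feedback inhibitor, stood at 1.87 FPKM in the JNJ-7706621 library and 0.554 FPKM in the DMSO library, a ratio of 3.37 (2.64 to 4.35) at low levels. Its log2 difference of 0.88 did not pass the rule, but passed it with pseudocounts of 0.1 and 0.5 FPKM (1.59 and 1.17) and with rescaling to a sum of 1000000 (1.20). LRIG3, of a family of receptor-binding membrane proteins, had a log2 difference of 0.69, and the cytokine signalling suppressors SOCS3 and SOCS5 had -0.80 and -0.58, where SOCS3 passed the rule with a pseudocount of 0.1 FPKM, at -1.13.

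Output genes of the MAPK pathway stood higher more often than genes of ligand release and signalling. So did other receptor tyrosine kinases, of which 17 of 19 tested lay above 0. Whether the activity of the pathway differed was not tested. Of 15 output genes tested, 14 lay above 0, 2 were called higher and 0 lower. Over all genes tested these shares were 49.6%, 2.39% and 1.36%. The median log2 difference of the output genes was 0.72, and 0.41 without the filter on low values. With a pseudocount of 0.1 FPKM 4 of them were called higher, beside 608 of all 13241 genes tested. The lists share some genes, such as SPRY4, which is also among those that damp the receptors. FOSL1, an AP-1 subunit, stood at 8.32 FPKM in the JNJ-7706621 library and 1.50 FPKM in the DMSO library, a ratio of 5.56 (4.26 to 7.34). DUSP6, a phosphatase of ERK, stood at 7.08 and 2.99 FPKM in the JNJ-7706621 and DMSO libraries, although exons of AC024909.2 overlap 40.5% of its exon length. The early genes FOS and EGR1, named after their values were seen, lay under the filter. FOS stood at 0.495 FPKM in the JNJ-7706621 library and 0.739 FPKM in the DMSO library, and EGR1 at 0.405 and 0.545 FPKM in the JNJ-7706621 and DMSO libraries.

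Among the 50 receptor tyrosine kinases listed, EGFR had the highest level in the JNJ-7706621 library. In the DMSO library it came second, just under MET. Their counting intervals there overlapped, 37.4 to 38.8 FPKM for EGFR and 37.7 to 39.6 FPKM for MET. MET, the receptor of hepatocyte growth factor, stood at 41.3 FPKM in the JNJ-7706621 library and 38.7 FPKM in the DMSO library, and the ephrin receptor EPHA2 at 46.7 and 25.5 FPKM. ERBB2 ranked 4 in both libraries. The differences of the ERBB receptors lay inside the spread of other receptor tyrosine kinases. Of 19 others tested, 17 lay above 0, their median was 0.37, beside 0.39 for the 3 ERBB receptors, and 9 of them had a larger difference than EGFR. The members with the largest differences were EPHB2 (0.88), EPHA2 (0.85), DDR1 (0.73) and MST1R (0.69), and 0 of the 19 were called. EPHB2, an ephrin receptor, stood at 2.48 FPKM in the JNJ-7706621 library and 0.889 FPKM in the DMSO library, a ratio of 2.79 (2.41 to 3.22). Its log2 difference passed the rule with pseudocounts of 0.1 and 0.5 FPKM (1.38 and 1.10) and with rescaling to a sum of 1000000 (1.12). EPHB4, also among the highest by level, had a log2 difference of 0.37.

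**Figure D5:**
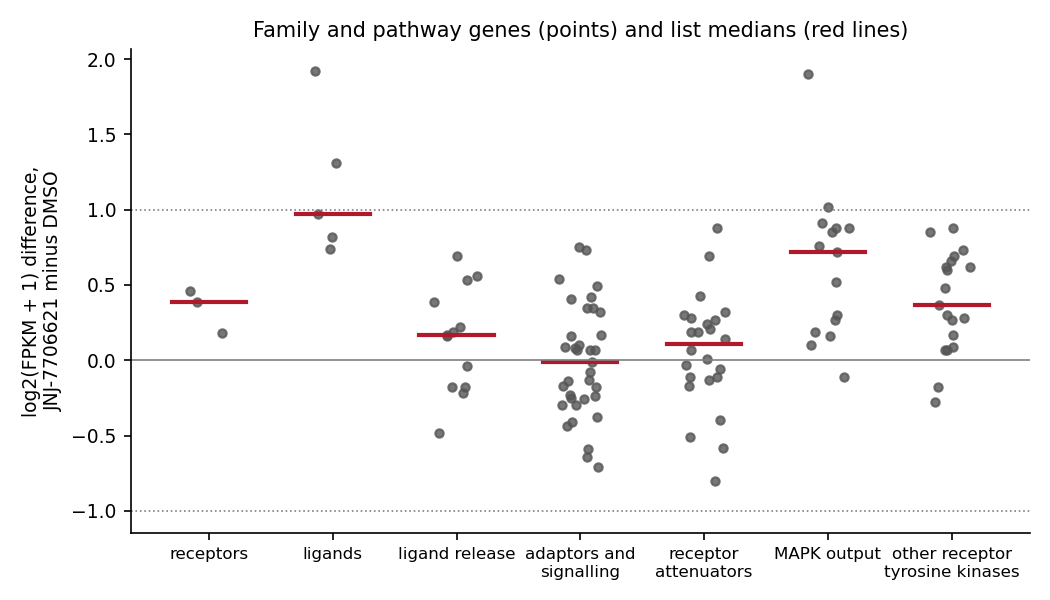
Difference in log2(FPKM + 1), JNJ-7706621 minus DMSO, of each tested gene (points) in 7 lists, with list medians as red lines and the rule of size as dotted lines. The ligands have the highest median (0.97), MAPK output genes follow (0.72), and adaptors and signalling genes centre near 0 (-0.01). The lists share some genes, such as SPRY4.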

How the data were processed

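RNA sequencing of 2 libraries labelled SK-MEL-2, 1 for JNJ-7706621 and 1 for DMSO, was used. The authors deposited FPKM values per Ensembl gene. The submitters' processing notes name hg38 and edgeR, with no role for the tool. The aligner, counter and strand setting were not given in the sources used here. Another 2 columns of values have names that end in 2 where those of the columns analysed end in 1, like second libraries of both groups. They match no sample label and were left aside.

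Library totals were read from the commonest product of FPKM and exon length (GENCODE release 29), that of 1 read. Reads were recovered for 27805 of 28014 annotated genes above 0, with the annotated exon length for 17325 and otherwise the nearest length, within 0.25 to 4 times, giving whole reads within 0.0001 in both libraries. For 6 of the 8 genes the nearest length was used. Intervals of ratios are exact Clopper-Pearson intervals given the sum of reads, and those of levels are exact Poisson intervals. A count of 0 was given a limit of 3 reads.

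No test was run, with 1 library per group. The rule of named genes took all family genes, chromosome 4 neighbours and markers, and the 4 largest differences of each other list (for receptor tyrosine kinases also the 4 highest levels). Only some markers are printed, and 1 gene that the rule takes is not reported here. The genes and lists were chosen with earlier results of these data known. Calls and recovery were tried on simulated data with counting error only. The exon lengths were given there, so the search for the nearest length was not tested. Alternatives were pseudocounts of 0.1 and 0.5, rescaling to a sum of 1000000, centring on the median and no filter. Python 3.11.15 and SciPy 1.17.1 were used.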

Additional observations from a re-analysis of the deposited data

How the results depend on the processing

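No paired analysis was possible because 1 library per group matched a sample label, with 2 further columns of the table set aside, and for the same reason no library could be left out. The 5 alternatives were pseudocounts of 0.1 and 0.5 FPKM, rescaling to a sum of 1000000, centring on the median, and no filter on low values. Each of the 8 genes stood higher in the JNJ-7706621 library under all 5 alternatives. Neither a pseudocount nor the filter can change the direction of a difference, and the median used for centring was only -0.0032. The shared direction is therefore no test of it. AREG and EREG were called higher under each, and BTC joined them, making 3, with both smaller pseudocounts and with rescaling. Of the other lists' genes, SPRY4 and EPHB2 were also called higher under these 3, EGF with rescaling, and PHLDA1, FGFR4 (higher) and SOCS3 (lower) with a pseudocount of 0.1. FGFR4 was named after its values were seen. With a pseudocount of 0.1 the log2 difference of BTC was 1.27, the median of the 8 genes 0.92, and the counts over all genes 608 higher and 409 lower, against 316 and 180. With 0.5 the count of lower genes was 274. Rescaling, which makes the pseudocount and the filter count for less, gave 714 higher and 478 lower genes. The median of the 5 ligands was 1.27, 1.12 and 1.12 with the pseudocounts of 0.1 and 0.5 and with rescaling, against 0.97. With rescaling, the medians of the other family genes and of MAPK output genes were 0.34 and 0.41. Without the filter 28711 genes entered, and the medians of MAPK output genes, other receptor tyrosine kinases and chromosome 4 neighbours were 0.41, 0.10 and 1.17. These shifts follow from the weight given to genes with low values. Of 370 values of other named genes, 319 stayed within the counting interval and 51 did not, and 0 called values changed sign. Part of the 319 was fixed in advance. Leaving out the filter alters no gene's own value, and a gene at 0 in only 1 library always counted as within its interval. Depth limits ERBB4, EPGN, NRG2 and NRG3, with 23 reads or fewer over both libraries.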
